A study of Homo sapiens with 8 samples.

Results

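The Eph receptors and their ephrin ligands were followed through 8 RNA-seq libraries of SW1990, an established human pancreatic adenocarcinoma line. The 10 members were the receptors EPHA1, EPHA2, EPHA4, EPHB2, EPHB3, EPHB4 and EPHB6 and the ligands EFNA1, EFNB1 and EFNB2, taken by symbol from a count table of 38637 genes that lists 22 genes of the family. EPHB2 stands among genes that the study selected on these same libraries as higher in both of its comparisons. Its change is therefore described here without a p-value, and the question put to the data is whether its relatives changed with it. The 4 groups had 2 libraries each. Vector cells carried the empty vector, and EBF2-OE cells overexpressed EBF2, a transcription factor of the early B-cell factor family. Vehicle cells were treated with vehicle alone, and GSK-LSD1 cells with GSK-LSD1, an inhibitor of the histone demethylase KDM1A (LSD1), at a dose that the labels give as 2000 µM. This is far more than the study names for its protein blots, and whether it is the dose in the medium is uncertain. The labels name the cells as SW1990, whereas the study elsewhere describes the sequenced cells as its luciferase-labelled SW1990 line. Nothing says whether libraries of a group came from separate cultures, so the p-values measure only the spread between these libraries.

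Eph receptors form the largest family of receptor tyrosine kinases, and their ligands, the ephrins, are held on the surface of neighbouring cells. A-class ephrins are anchored by a lipid, whereas B-class ephrins cross the membrane, and each class binds mainly the receptors of its own letter. Contact sends a forward signal into the receptor cell and a reverse signal into the ephrin cell, and in epithelia the system is known for cell repulsion, boundary formation and the sorting of cells by position.

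Total counts on genes ran from 20453362 to 27054876 per library. EBF2 had 28 counts in each Vector library, 5818 in EBF2-OE 2 and 90100 in EBF2-OE 3. The overexpressing libraries thus differed greatly in EBF2 itself. KDM1A, the target of the inhibitor, lay between 119 and 177 TPM (counts per gene length, scaled to a common library total) in all 8 libraries. The summed TPM of 7 ductal epithelial markers was 4620 to 7230, although CDH1 (E-cadherin) among them reached no more than 1.12 TPM. The 4 acinar markers summed to at most 0.306 TPM, the 4 endothelial markers to 0.639 to 5.35, the 4 leukocyte markers to 1.96 to 7.36, the 3 neuronal and glial markers to 1.63 to 3.87 and the 3 intestinal stem cell markers to at most 0.144. The 5 fibroblast markers summed to 50.6 to 66.4 TPM, with COL1A1 the highest of them. As all 8 libraries are of the SW1990 line, these sums are read as levels in that line. In bulk libraries, fewer cells with a transcript and less of it per cell cannot be told apart.

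The promoter windows of EPHB2 and EPHA2 are printed because EPHB2 is the member with the largest change in both comparisons and EPHA2 the receptor with the highest level, and both genes lie on chromosome 1. The letters are RefSeq's for GRCh38.p14, 5′ to 3′ on the gene's own strand, and end at the base before the gene as the count table lists it. EPHB2 is shown at chr1:22710588-22710769 (plus strand) and EPHA2 at chr1:16156105-16156319 (minus strand), with CpG dinucleotides in capitals.
EPHB2: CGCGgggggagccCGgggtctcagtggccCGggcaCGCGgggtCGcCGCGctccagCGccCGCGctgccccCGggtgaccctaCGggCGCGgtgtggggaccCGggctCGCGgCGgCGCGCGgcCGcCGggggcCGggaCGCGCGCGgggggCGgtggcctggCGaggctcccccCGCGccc
EPHA2: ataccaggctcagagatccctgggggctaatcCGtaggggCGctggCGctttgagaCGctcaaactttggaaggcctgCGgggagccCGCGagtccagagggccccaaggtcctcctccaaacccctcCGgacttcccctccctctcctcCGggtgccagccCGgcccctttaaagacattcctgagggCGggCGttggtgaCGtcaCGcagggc
The EPHB2 stretch of 182 bases held 34 CpG dinucleotides and 87.4% G or C, and the EPHA2 stretch of 215 bases held 14 and 65.6%. Over the full windows, from 250 bases before to 50 after the start site, EPHB2 had 49 CpG dinucleotides and EPHA2 20, beside a median of 14 over 35116 windows of all genes. The palindromic core TCCCNNGGGA, known to be bound by EBF factors and the same on both strands, was present in 425 of those windows, or 1.21%. It was present in 0 of 26 windows of the 20 family genes that could be matched, which include all 10 members with 12 windows. No match says only that these letters are not in these windows.

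SW1990 cells carried a narrow part of the receptor set. EPHA2, a class A receptor often abundant in epithelial tumors, had 164 and 141 TPM in Vector 2 and 3, 154 and 179.5 in EBF2-OE 2 and 3, 151 and 142 in Vehicle 1 and 2, and 107 and 115 in GSK-LSD1 1 and 2. EPHB4, a class B receptor best known from venous endothelium, had 76.2 and 63.4 TPM in Vector, 67.5 and 73.7 in EBF2-OE, 88.2 and 81.8 in Vehicle, and 70.9 and 76.7 in GSK-LSD1 cells. Together they made up 98.7% to 99.5% of the summed TPM of the receptors in every library.

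EPHB2, a class B receptor known from the crypt base of the intestine, stood at 0.350 and 0.340 TPM in Vector, 0.512 and 0.809 in EBF2-OE, 0.292 and 0.303 in Vehicle, and 0.548 and 0.760 in GSK-LSD1 cells. That was 0.121% to 0.39% of the receptor TPM, so the receptor with the largest change was among the least abundant of those detected. The raw counts behind it were 31 and 35 in Vector, 45 and 79 in EBF2-OE, 32 and 36 in Vehicle, and 57 and 76 in GSK-LSD1 cells. An exact Poisson interval at 95%, which covers counting error only, ran from 21.1 to 44.0 counts for Vector 2 and from 32.8 to 60.2 for EBF2-OE 2, and these intervals overlap. It ran from 62.5 to 98.5 for EBF2-OE 3, above the upper bound of 48.7 for Vector 3. These counts are not scaled for depth, and EPHB2 was selected on this comparison. The intervals therefore show only how few counts there are and are not read as a test.

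The remaining 4 receptors had 5 counts or fewer in every library and could not be tested. EPHA1, a class A receptor of epithelia, had 0 counts in both Vector libraries, 2 in EBF2-OE 2, 5 in EBF2-OE 3, 2 and 1 in Vehicle, and 0 and 1 in GSK-LSD1 cells. EPHA4, which unlike most of the family binds ephrins of both classes, had at most 3 counts. EPHB3, the usual companion of EPHB2 in the intestinal crypt, had at most 3 counts as well, and EPHB6, whose kinase domain is inactive, at most 2. A count of 0 allows up to 3 counts, or 0.111 to 0.147 CPM (counts divided by the library total and rescaled) in these libraries. A change within these few counts was therefore not detectable at this depth, while a rise above 5 counts was seen in no library.

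Among the ligands, EFNA1, the main partner of EPHA2, had 236 and 104 TPM in Vector, 191 and 106 in EBF2-OE, 141 and 147 in Vehicle, and 160 and 164 in GSK-LSD1 cells, 62.3% to 72% of the TPM of all ephrins. EFNB1 had 10.1 and 6.18 TPM in Vector, 9.64 and 9.62 in EBF2-OE, 7.68 and 7.48 in Vehicle, and 6.31 and 6.21 in GSK-LSD1 cells. EFNB2, the ligand of EPHB4 in vessels, had 1.63 and 3.74 TPM in Vector, 1.45 and 2.91 in EBF2-OE, 1.14 and 1.34 in Vehicle, and 0.902 and 1.22 in GSK-LSD1 cells. Ordered by TPM, EPHA2 and EFNA1 overlapped over the 8 libraries, while EPHB4, EFNB1, EFNB2 and EPHB2 followed in ranges that did not overlap with each other. The cells thus held transcripts of an A-class receptor and ligand, EPHA2 and EFNA1, and of a B-class receptor, EPHB4. The B-class ligands EFNB1 and EFNB2 were at lower levels.

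**Figure D1:**
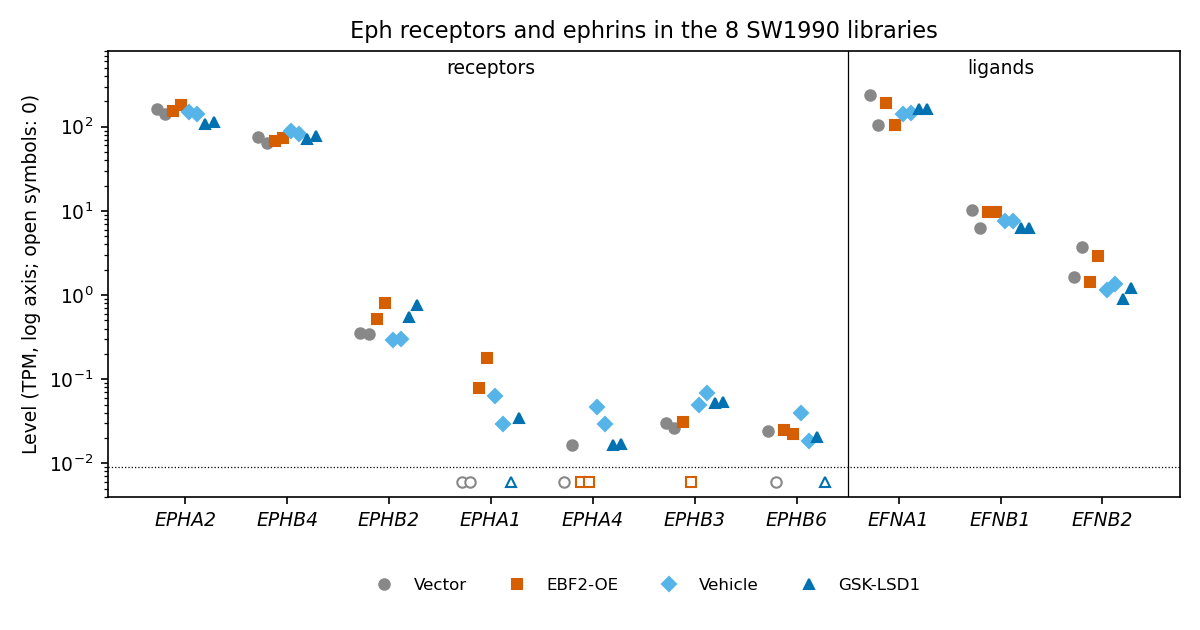
TPM of the 10 members (log axis) in the 8 libraries, 1 symbol per library and 1 shape per group, with open symbols under the dotted line for values of 0. EPHA2, EPHB4 and EFNA1 lie above 60 TPM in every library, EPHB2 between 0.292 and 0.809, and EPHA1, EPHA4, EPHB3 and EPHB6 at or under 0.176.

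The first comparison set EBF2-OE against Vector and asked which members change with EBF2 overexpression. EPHB2 was higher in both EBF2-OE libraries than in both Vector libraries, and the 5 other tested members overlapped between the groups. Counts were tested with edgeR's quasi-likelihood test, and a gene was called at a fold above 1.5 with a Benjamini-Hochberg adjusted p under 0.05. By that rule 0 of the 6 tested members were called, beside 0.0% of the 15560 genes tested. The overexpressed gene EBF2 itself, with a log2 fold change of 10.75 ± 1.55 (SE), was not called either. The lack of calls in this edgeR test therefore does not show that the members were unchanged. At an unadjusted p under 0.05 with the same fold limit 148 genes passed, among the members only EPHB2, which was selected on this comparison. DESeq2 called 7 genes, none of them a member. The biological coefficient of variation, the spread between libraries beyond counting error, was 19% here, against 5.87% between the inhibitor libraries and their controls.

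EPHB2 had 1.46 and 1.47 normalized CPM in Vector 2 and 3, and 2.21 and 3.52 in EBF2-OE 2 and 3. The log2 fold change was 0.97 ± 0.386 (SE, n = 2 against 2), a fold of 1.96. The value was 0.59 without EBF2-OE 3, the library with more EBF2, and 1.26 without EBF2-OE 2, and the part of the EBF2 level in this was not tested. EPHB2 was the only member of 6 with both EBF2-OE libraries above both controls, and 0 members lay below both. Of all genes tested, 12.1% lay above and 10.8% below. Nothing is read from the EPHB2 share, since the study's choice used this comparison.

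The abundant receptors had smaller values than EPHB2. EPHA2 had 256 and 228 CPM in Vector and 249 and 293 in EBF2-OE cells, a log2 fold change of 0.16 ± 0.137 (SE) with a 95% interval from −0.17 to 0.50. EPHB4 had 123 and 106 CPM in Vector and 112 and 124 in EBF2-OE cells, a log2 fold change of 0.05 ± 0.137 with an interval from −0.28 to 0.38. The interval of EPHB2, from 0.03 to 1.91, overlaps both, and the groups of libraries overlapped for either receptor. Since EPHB2 was selected on this comparison, its own interval is not read as a test. The EPHA2 value was 0.04 without EBF2-OE 3, 0.08 without Vector 3, 0.26 without Vector 2 and 0.28 without EBF2-OE 2. The ductal markers summed to 4620 to 4950 TPM in Vector and 5470 to 6250 in EBF2-OE cells, and their part was not tested. The adjusted p was 1.0 for each in edgeR.

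The ligands were less precisely measured, and their Vector libraries lay far apart. EFNA1 had 134 and 60.9 CPM in Vector 2 and 3 and 112 and 62.8 in EBF2-OE 2 and 3, which gave a log2 fold change of −0.16 with an interval from −1.17 to 0.86. EFNB2 had 8.61 and 20.5 CPM in Vector and 7.89 and 16.1 in EBF2-OE cells, a log2 fold change of −0.28 with an interval from −1.46 to 0.91. EFNB1 had 12.2 and 7.73 CPM in Vector and 12.01 and 12.1 in EBF2-OE cells, a log2 fold change of 0.28 with an interval from −0.36 to 0.91. In edgeR the adjusted p was 1.0 for the 3 ligands. In this fit, which takes no account of library number, the intervals of EFNA1 and EFNB2 hold 1.5-fold differences in both directions. The median log2 fold change of the 6 tested members was 0.11, beside 0.00 over all genes.

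In both of these groups the libraries numbered 3 differed from those numbered 2 in the same direction for EFNA1 and EFNB2. EFNB1 did not follow, with a log2 CPM in library 3 minus library 2 of −0.66 in Vector and 0.01 in EBF2-OE cells. EFNA1 was lower in library 3 by 2.2-fold in Vector and 1.78-fold in EBF2-OE cells, and EFNB2 was higher in library 3 by 2.38-fold and 2.04-fold. EFNA3, a family gene beside EFNA1 on chromosome 1 that is not among the 10, was also lower in library 3, by 2.37-fold and 1.6-fold. The Vehicle and GSK-LSD1 libraries showed no such split for EFNA1, whose log2 CPM in library 2 minus library 1 was 0.04 in Vehicle and −0.01 in GSK-LSD1 cells. For EFNB2 this value was 0.22 in Vehicle and 0.40 in GSK-LSD1 cells. The labels do not say what the numbers stand for, and their part in the EBF2-OE values was not tested beyond the fit with the number as a block.

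**Figure D2:**
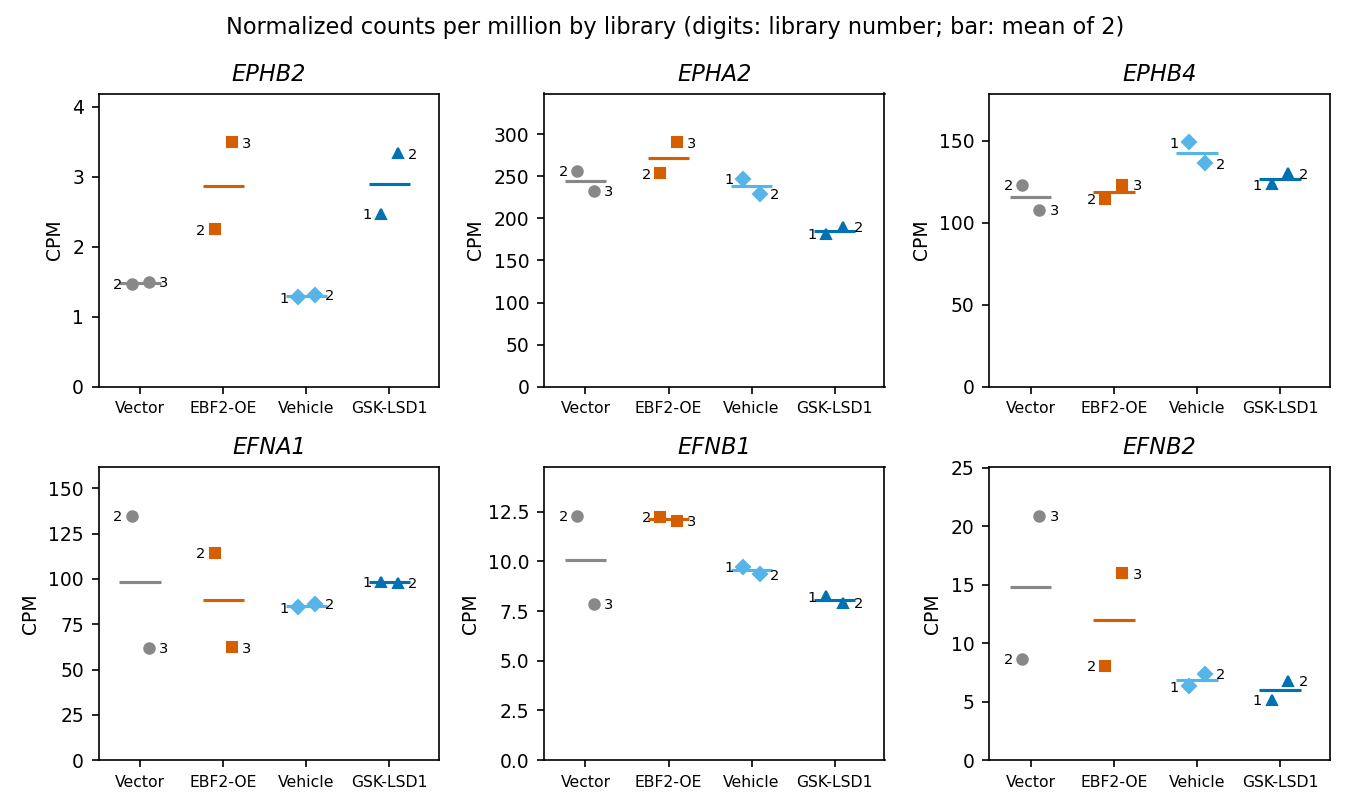
CPM of the 6 tested members by group (axes start at 0, normalization factors of all 8 libraries), with each point's library number beside it and a bar at the mean of the 2 libraries. EPHB2 is higher in EBF2-OE and GSK-LSD1 than in their controls, EPHA2 lies lowest in GSK-LSD1, and EFNA1 and EFNB2 split by library number in Vector and EBF2-OE.

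The second comparison set GSK-LSD1 against Vehicle, which asks what changes with inhibition of the demethylase. EPHB2 was higher, EPHA2 was lower and EFNA1 was slightly higher in both treated libraries than in both controls. Of the 5 tested members other than EPHB2, 0 were called by edgeR or DESeq2, and edgeR called 4.57% of the 16059 genes tested. Without the fold limit 2 of these 5 passed an adjusted p under 0.05 in edgeR, EFNA1 higher and EPHA2 lower, beside 18.7% of all genes. Both treated libraries lay above both controls for 2 members and below both for 3, where 30.0% and 30.2% of all genes did so. These shares hold EPHB2, for which the study's choice used this comparison.

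EPHB2 had 1.29 and 1.32 CPM in Vehicle 1 and 2 and 2.49 and 3.37 in GSK-LSD1 1 and 2. The log2 fold change was 1.16 ± 0.244 (SE, n = 2 against 2), a fold of 2.24. It ranged from 0.93 to 1.36 when each library was left out in turn, with the lowest value without GSK-LSD1 2. EPHB2 was past the limits for a call, which its selection on this comparison favoured, but not without GSK-LSD1 2 or in the fit over all 8 libraries.

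EPHA2 had 251 and 231 CPM in Vehicle and 183 and 192 in GSK-LSD1 cells. Its log2 fold change was −0.36 ± 0.0564 (SE), 1.28-fold lower, with an interval from −0.48 to −0.24 and an adjusted p of 0.00171 in edgeR. The fold lay under the limit of 1.5, so EPHA2 was not called, and in 1 fit over all 8 libraries it had an adjusted p of 0.187. Over the alternatives the adjusted p ran from 9.21e-08 to that value. The groups did not overlap, and the direction was opposite to that of EPHB2. The summed TPM of the 7 ductal markers was 7120 to 7230 in Vehicle and 5320 to 5360 in GSK-LSD1 cells, and its part in the EPHA2 value was not tested.

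EPHB4 had 151 and 137 CPM in Vehicle and 125 and 131 in GSK-LSD1 cells, all treated values below the controls. The log2 fold change of −0.17 ± 0.0592 (SE) had an adjusted p of 0.0706 in edgeR and did not pass the test. It was −0.10 without Vehicle 1 and −0.24 without Vehicle 2, where the adjusted p was 0.00243, and over all alternatives the adjusted p ran from that value to 0.542. Endothelial markers, for which EPHB4 is known, summed to 5.17 to 5.35 TPM in Vehicle and 2.84 to 2.89 in GSK-LSD1 cells, and their part was not tested.

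EFNA1 had 85.4 and 86.9 CPM in Vehicle and 99.4 and 98.8 in GSK-LSD1 cells, with library values close together in both groups. The log2 fold change was 0.20 ± 0.0528 (SE), 1.15-fold higher, with an adjusted p of 0.0233 in edgeR. It reached 0.874 in the fit over all 8 libraries, which also holds the Vector and EBF2-OE libraries, and 0.0121 at the lowest among the alternatives. The receptor EPHA2 and its ligand EFNA1 thus lay on opposite sides of their controls.

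Of the B-class ligands, EFNB1 had 9.88 and 9.41 CPM in Vehicle and 8.32 and 7.98 in GSK-LSD1 cells, and did not pass with a log2 fold change of −0.24 ± 0.117 (SE) and an adjusted p of 0.18 in edgeR. EFNB2 had 6.40 and 7.40 CPM in Vehicle and 5.21 and 6.88 in GSK-LSD1 cells, which overlapped, with a log2 fold change of −0.19 ± 0.161 and an adjusted p of 0.451. The 2 tested B-class ligands and EPHB4, the more abundant B-class receptor, all had log2 values below 0, while EPHB2 was above. The median log2 fold change of the 6 tested members was −0.18, beside −0.01 over all genes.

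**Figure D3:**
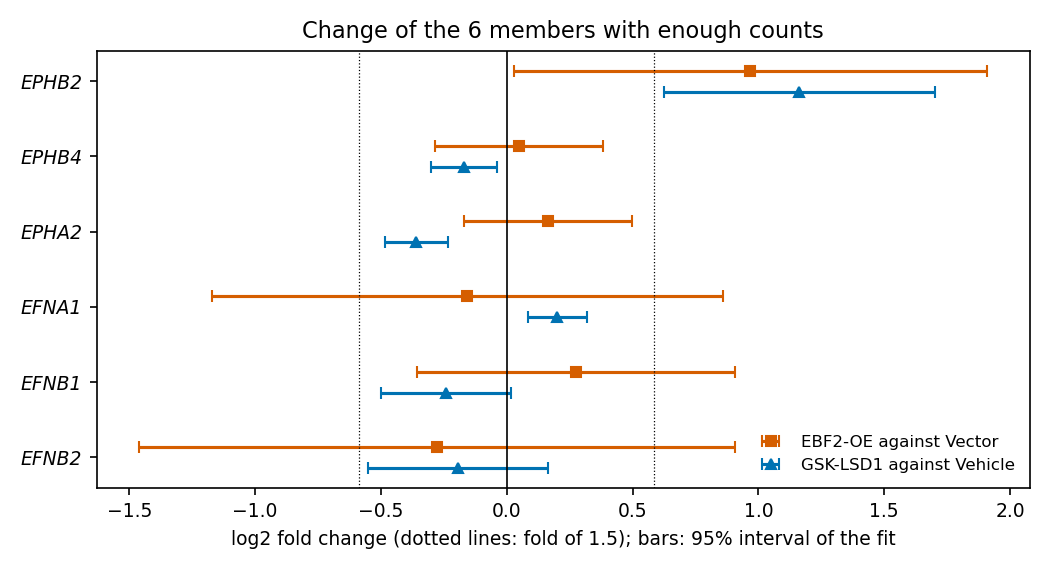
Log2 fold changes of the 6 tested members from edgeR with 95% intervals, EBF2-OE against Vector (squares) and GSK-LSD1 against Vehicle (triangles), 2 libraries against 2 in each. EPHB2 lies at 0.97 and 1.16, the 10 values of the other 5 members lie between −0.36 and 0.28, and the EBF2-OE intervals are the wider ones for every member. EPHB2 was selected on both comparisons, so its intervals are not read as tests.

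Side by side, the members' values in the comparisons were 0.97 and 1.16 for EPHB2, 0.16 and −0.36 for EPHA2, 0.05 and −0.17 for EPHB4, −0.16 and 0.20 for EFNA1, 0.28 and −0.24 for EFNB1, and −0.28 and −0.19 for EFNB2. EPHB2 was the 1 member of 6 whose treated libraries lay above both controls in both comparisons, a pattern held by 705 of the 15260 genes tested in both, or 4.62%, and the one for which it was chosen. Whether a member changed differently in the comparisons was tested on all 8 libraries as the difference of the log2 fold changes, GSK-LSD1 minus EBF2-OE. EPHA2 had a difference of −0.51 ± 0.144 (SE), with an adjusted p of 0.408 in edgeR and an unadjusted p of 0.00655, so that it was not shown to differ over all genes. For EPHB2 the difference was 0.20 with an interval from −0.79 to 1.2. The study's choice of EPHB2 used both comparisons, so nothing is read from this interval. By this test 0 of the 6 members and 0.0% of the 16558 genes were called in edgeR, while DESeq2 called 95 genes. EPHA2 was the 1 member with an unadjusted p under 0.05 in edgeR, and the share of all genes at that limit was not taken. The members' differences ran from −0.51 to 0.36.

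The 2 kinds of control cell were compared as well, a contrast that the choice of EPHB2 did not use. EPHB2 had 1.48 and 1.49 CPM in Vector and 1.29 and 1.31 in Vehicle, a log2 difference of 0.19 ± 0.271 (SE) with an adjusted p of 0.617 in edgeR. EFNB2 had 8.73 and 20.8 CPM in Vector and 6.36 and 7.35 in Vehicle, a log2 difference of 1.11 ± 0.407 with an adjusted p of 0.0943 in edgeR. It was 0.34 without Vector 3 and 1.6 without Vector 2, and the adjusted p ran from 0.000141 to 0.338 over the alternatives. EPHB4 had 124 and 107.5 CPM in Vector and 150 and 136 in Vehicle, a log2 difference of −0.31 ± 0.103 with an adjusted p of 0.0783, which ran from 0.00336 without Vector 2 to 0.445 without Vehicle 1. Endothelial markers summed to 0.74 to 0.906 TPM in Vector and 5.17 to 5.35 in Vehicle, and ductal markers to 4620 to 4950 and 7120 to 7230, and their part was not tested. With edgeR 0 of the 6 members were called, beside 16.0% of the 16019 genes tested. DESeq2 called EFNB2, among 2467 genes that it called in all. In edgeR 2 members had an unadjusted p under 0.05, but the share of all genes at that limit was not taken, so nothing is read from this count. Vector lay above Vehicle in all libraries for EPHB2 and EFNB2 and below for EPHB4, which 35.6% and 35.3% of all genes also did. In this contrast the vector, the handling and any batch cannot be told apart.

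The family beyond the 10 members was also read. Of the other 12 genes, EPHA3, EPHA6, EPHA8, EPHA10, EPHB1 and EFNB3 had 9 counts or fewer in every library and were not tested. The 6 tested ones were the receptors EPHA5 and EPHA7 and the ligands EFNA2, EFNA3, EFNA4 and EFNA5. EFNA3 had 13.4 and 14.4 CPM in Vehicle and 17.2 and 19.5 in GSK-LSD1 cells, a log2 fold change of 0.40 ± 0.105 (SE) and 1.32-fold higher, with an adjusted p of 0.0238 in edgeR. Like EFNA1, it passed the adjusted p but not the fold limit, and its adjusted p was 0.706 in the fit over all 8 libraries and 0.00744 at the lowest.

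EFNA4, which lies beside EFNA3 and EFNA1 on chromosome 1, had 19.3 and 22.1 CPM in Vehicle and 16.8 and 18.6 in GSK-LSD1 cells. Its log2 fold change of −0.23 ± 0.104 (SE) had an adjusted p of 0.16 in edgeR, so that it did not pass, and its value lay on the other side of 0 from those of its neighbours EFNA1 and EFNA3. EFNA2 had 1.05 and 0.842 CPM in Vehicle and 0.438 and 0.444 in GSK-LSD1 cells, a log2 fold change of −1.09 ± 0.396 from 10 to 26 counts a library, with an adjusted p of 0.0815. EPHA7 was 3.68 and 3.85 CPM in Vehicle and 4.82 and 4.79 in GSK-LSD1 cells, with a log2 fold change of 0.35 ± 0.156 and an adjusted p of 0.146. For EPHA5 and EFNA5 the log2 fold changes were 0.10 and 0.05. In EBF2-OE against Vector the 6 values ran from −0.03 for EFNA2 to 0.50 for EPHA5, none with its libraries apart and each with an adjusted p of 1.0 in edgeR. Apart from EPHB2, edgeR and DESeq2 called 0 tested genes of the family in either comparison, beside 0.0% of all genes with EBF2-OE and 4.57% with the inhibitor in edgeR. At an unadjusted p under 0.05 with the fold limit, EFNA2 passed with the inhibitor in edgeR, as did 1086 of the 16059 genes tested.

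The genes whose level over the 8 libraries ran most like that of EPHB2 were also listed. By Pearson correlation of log2 CPM among 15259 genes, they were IGSF8, an immunoglobulin superfamily protein (r = 0.981), WBP2, a WW-domain binding protein (0.958), LOC105373367 (0.937), TNFRSF10C, a decoy receptor for TRAIL (0.936), and CDH3, P-cadherin (0.932). IGSF8 had 583 and 627 counts in Vector, 648 and 951 in EBF2-OE, 643 and 632 in Vehicle, and 821 and 891 in GSK-LSD1 cells. The counts were far fewer for LOC105373367, at 6 to 20 a library, and for CDH3, at 22 to 49. These values share libraries and depth and are a description over 8 libraries in 4 groups. The family is a small part of the genes compared, so nothing is read from the closest genes lying outside it. The EPHB2 pattern is also the one for which the study chose this gene. Within the family the correlation with EPHB2 was 0.44 for EPHA7 at the highest, −0.24 for EPHB4, −0.16 for EPHA2 and −0.11 for EFNA1, where the 9th decile of all genes was 0.45.

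A list of 65 genes that act with Eph receptors and ephrins was read in the same way. In EBF2-OE against Vector 0 of 60 tested genes were called in edgeR, and 0 had an unadjusted p under 0.05. In GSK-LSD1 against Vehicle 1 of 61 was called, beside 4.57% of all genes. It was CNKSR1, a scaffold known from ephrin-B reverse signalling. It had 33.8 and 34.6 CPM in Vehicle and 21.7 and 22.3 in GSK-LSD1 cells, a log2 fold change of −0.64 ± 0.0769 (SE) with an adjusted p of 0.00036. Between the controls, Vector against Vehicle, 3 of 60 were called, beside 16.0% of all genes. The kinase ABL2 was higher in Vector with a log2 difference of 1.35 ± 0.341 (SE) and an adjusted p of 0.039 in edgeR, and its Vector libraries lay apart at 146 and 314 CPM. The adaptor GRB10 was higher by 1.30 ± 0.147 with an adjusted p of 0.00869, and CNKSR1 was lower with −0.69 ± 0.111 and an adjusted p of 0.0139.

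Without the fold limit 5 genes of the list were higher and 4 lower with the inhibitor at an adjusted p under 0.05 in edgeR, where 18.7% of all genes passed in either direction. The higher ones were the adaptor SHC1 (log2 fold change 0.16), the GTPase-activating protein SIPA1L1 (0.31), RGS3, a regulator of G-protein signalling bound by ephrin-B (0.45), the tight junction protein CLDN4 (0.54) and CTNNB1, β-catenin (0.21). The lower ones beside CNKSR1 were the adaptors NCK2 (−0.43) and GRB7 (−0.35) and the exchange factor VAV2 (−0.26). RGS3, NCK2 and GRB7 were named after their values were seen. The genes with the highest level in their role differed in this respect, since the adaptor SHC1 (148 to 210.0 TPM) and CTNNB1 (168 to 215 TPM) passed, while the small GTPase RHOA (650 to 741 TPM), the phosphatase INPPL1 (174 to 223 TPM) and STAT3 (151 to 171 TPM) did not. Of the 7 genes of shedding and cleavage, which include the γ-secretase subunits APH1A, PSENEN and NCSTN, 7 were tested and 0 passed, with log2 fold changes of 0.03 to 0.23. The median over the list was 0.04 with the inhibitor and −0.02 with EBF2, beside −0.01 and 0.00 over all genes.

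Several members share bases, from their listed start to end, with genes on the other strand. No strand setting is stated for the counting, so whether reads of either gene were counted for the other is not known. EPHB4 shares 655 bases with SLC12A9, which had 484 to 988 counts against 2290 to 3748 for EPHB4. EPHA2 shares 1109 bases with LOC101927479 (123 to 225 counts) and EFNB2 1652 bases with LOC112268109 (30 to 105 counts), which for EFNB2 is a sizeable number beside its own 119 to 488. EPHB2 overlaps MIR4253 on the other strand and MIR4684 on its own strand, both at 0 counts.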

How the data were processed

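RNA-seq of 8 SW1990 libraries was analysed. The authors selected poly(A) RNA, used HISAT2 with default parameters on hg38 for paired reads, then HTSeq for counts per gene, and the sources used here state no strand setting. The deposited table holds raw counts, and TPM that the authors computed from these counts and the listed gene lengths. Levels between genes were read from TPM, and all tests started from the counts. Each comparison was fitted on its own 4 libraries with edgeR 4.0.16 in R 4.3.3 (TMM, filterByExpr with a minimum count of 10, quasi-likelihood test, two-sided, Benjamini-Hochberg adjustment over all genes), and the difference between comparisons on all 8. Standard errors come from the test statistic. Likeness to EPHB2 was the Pearson correlation of log2 CPM with a prior count of 2, and the 5 highest genes were named.

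All 10 members were named, and other family genes where they passed the filter. From the pathway list, genes were named where called, otherwise from the 3 per role with the highest TPM, apart from RGS3, NCK2 and GRB7. The members and lists were chosen with earlier results of these data known. The alternatives were 1 fit over all 8 libraries, DESeq2 1.42.0, a minimum of 10 counts in every library, no low-count filter, the replicate number as a block, DESeq2 size factors in edgeR, limma 3.58.1 on log2 CPM with a pseudocount of 1, unadjusted p-values, no fold limit, and leaving out each library. Scripts were tested on simulated data. Libraries of a group differed by more than sampling noise (chi-square per degree of freedom of 5.34 to 32.9) and were kept apart. Total counts, given with the libraries, set the precision.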

Additional observations from a re-analysis of the deposited data

How the results depend on the processing

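In EBF2-OE against Vector edgeR called 0 genes, and DESeq2 called 7, no low-count filter 74, 1 fit over all 8 libraries 2, the replicate block 5, unadjusted p-values 148, and leaving out each library 0 to 2. Of the members, 0 were called except with unadjusted p-values, where 1 (EPHB2) was. EPHB2 was selected on both comparisons, which favoured its calls in either. In GSK-LSD1 against Vehicle the 734 genes called became 476 with DESeq2, 100 in the fit over all 8 libraries, 3007 without a fold limit and 413 to 1006 with a library left out. The 1 member called became 0 in the fit over all 8 libraries, 3 without a fold limit, and 0 to 1 with a library left out. In Vector against Vehicle the 2558 genes became 0 to 4262 with a library left out (0 without Vehicle 1, 26 without Vehicle 2, 4262 without Vector 2), and the 0 members became 1 with DESeq2, 1 without the filter and 0 to 1 with a library left out. For the difference of the comparisons the 0 genes became 95 with DESeq2, 369 without the filter and 0 to 70 with a library left out. The causes were not tested.

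Leaving out a library, which leaves a lone library assumed to vary like the other group, turned the sign of several small log2 values. In EBF2-OE against Vector these ran from −0.0538 to 0.17 for EPHB4, −0.64 to 0.53 for EFNA1, −0.0181 to 0.65 for EFNB1, −0.88 to 0.48 for EFNB2, −1.02 to 1.22 for EPHA5, −0.27 to 0.85 for EPHA7, −1.23 to 0.60 for EFNA2, −0.49 to 0.76 for EFNA3, −0.27 to 0.49 for EFNA4 and −0.14 to 0.36 for EFNA5. EFNA3, at 0.00 in the main test, was −0.0029 with DESeq2, −0.0023 with its size factors and −0.01 without the filter. In GSK-LSD1 against Vehicle EPHA5 ran from −0.32 to 0.44. In Vector against Vehicle EPHA2 ran from −0.0462 to 0.11, EFNA1 from −0.47 to 0.66 and EFNB1 from −0.29 to 0.37. For the difference of the comparisons EPHB2 ran from −0.0835 to 0.58, EFNA1 from −0.33 to 0.85 and EFNB2 from −0.68 to 0.70. EPHB2 and EPHA2 kept their direction under every alternative of both comparisons.

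The labels give Vector and EBF2-OE the same numbers, and likewise Vehicle and GSK-LSD1, but only 2 of each. Deviations from the group means correlated between same-numbered libraries at 0.312 in EBF2-OE and Vector and at −0.01 in GSK-LSD1 and Vehicle. With the replicate block 5 genes were called in EBF2-OE against Vector and 763 in GSK-LSD1 against Vehicle. In EBF2-OE against Vector the block gave EFNA1 a log2 value of −0.11 ± 0.14 (SE, ± 0.417 without it) and EFNB2 −0.24 ± 0.172 (± 0.486 without it), and no call of a member changed.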
